A study of Homo sapiens with 6 samples.

Results

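TGF-beta signaling was described here through 9 genes that span the pathway from ligand to target, and 8 of these 9 genes differed between parental and NUAK2-edited glioblastoma cells, as did 54.5% of all genes tested. The genes were the 3 ligands TGFB1, TGFB2 and TGFB3, the 3 latent binding proteins LTBP1, LTBP2 and LTBP3, the 2 signaling receptors TGFBR1 and TGFBR2, and TGFBI, a secreted matrix protein named for its induction by TGF-beta. They were listed by gene name out of 28395 genes in the count table, and all 9 passed the filter on low counts. All 3 latent binding proteins, all 3 ligands and TGFBR1 rose in the edited cells, TGFBI fell, and TGFBR2 did not pass the test.

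The study set out to learn what the kinase NUAK2 does in glioblastoma. Bulk RNA-sequencing was performed on U251, an established human glioblastoma cell line labeled U251MG, with 3 libraries of the genotype WT and 3 of the genotype NUAK2-CR. NUAK2-CR cells carried CRISPR-Cas9 edits of NUAK2 that were delivered by lentivirus with fluorescent reporters, and single sorted cells were grown into clones. The labels name no clone, so the 3 NUAK2-CR libraries may come from 1 clone, and differences between clones and effects of the edit cannot be told apart. Nor do the labels say that libraries of a group were separate cultures, so the p-values measure only the spread between these libraries, which may be technical. In bulk RNA, fewer cells of a type and less RNA per cell cannot be told apart.

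TGF-beta is made as a precursor that the protease furin cleaves, after which the propeptide stays wrapped around the mature ligand and keeps it inactive. A latent TGF-beta binding protein is joined to the propeptide and anchors the complex in the extracellular matrix, from which integrins or proteases free the ligand. The free ligand binds TGFBR2, which recruits and phosphorylates TGFBR1, and TGFBR1 in turn phosphorylates SMAD2 and SMAD3, which enter the nucleus with SMAD4. In glioblastoma, TGF-beta is known for its roles in invasion, immune suppression and the upkeep of stem-like cells.

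Library totals ranged from 29648445 counts in NUAK2-CR replicate 1 to 55574081 in WT replicate 1, and every library of WT was deeper than every library of NUAK2-CR. NUAK2 itself had 1926, 1457 and 1580.1 normalized counts (scaled so that libraries of different depth compare) in the WT libraries and 799, 961 and 849 in the NUAK2-CR libraries. Its log2 fold change was -0.93 (standard error 0.11, edgeR adjusted p = 1.8e-05), so its transcript was lower but present. The 25 tested genes on either side of NUAK2 had a median log2 fold change of -0.44, and chromosome 1 as a whole of -0.43. The part of the region in the fall of NUAK2 was not tested. The groups differed widely, with 8107 of 14873 tested genes, or 54.5%, past an edgeR adjusted p of 0.05 (quasi-likelihood test, adjusted by the Benjamini-Hochberg method). Such genes are referred to here as called: 26.3% of the tested genes were called higher in NUAK2-CR and 28.2% lower. The labeled cell type was checked with glial and glioma markers. GFAP, NES, VIM and SOX2 were expressed in both groups, OLIG2 was at 0 in all 6 libraries and AQP4 did not exceed 2.15 normalized counts. The 10 glial markers summed to between 230012 and 235698 normalized counts in WT libraries and between 105838 and 112889 in NUAK2-CR libraries. Of the 8 tested glial markers, 5 were called, all of them lower (62.5%, against 28.2% of all tested genes). Of the other cell types, 6 immune markers summed to between 860.2 and 972 in WT and between 243 and 291 in NUAK2-CR. CD68 (mean 683 to 226) and CSF1R (222 to 40.2) carried this sum and were called lower, while AIF1 and CD3E were at 0 throughout and PTPRC was at most 2.89. Sums of the 4 endothelial markers were 227 to 308 in WT and 186 to 201 in NUAK2-CR, a sum carried by KDR (251.1 to 106). VWF (17.5 to 58.5) and PECAM1 (0.443 to 15.8) were called higher, but PECAM1 passed the filter on low counts through the NUAK2-CR libraries alone. Sums of the 4 epithelial markers were 15.4 to 27.2 in WT and 12.1 to 22.9 in NUAK2-CR. The 4 neuron markers summed to between 455 and 583 in WT and between 1364 and 1616 in NUAK2-CR. SYT1 (mean 458 to 715) and SNAP25 (64.6 to 754) carried this sum and were called higher, while RBFOX3 stayed at or below 17.4 normalized counts. These marker differences moved with the groups, and their part in the results below was not tested.

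The start sites of the genes that moved most are shown first, since the 3 latent binding proteins rose together and TGFBI fell. Each window is taken from RefSeq on GRCh38.p14 and runs from 250 bases before an annotated transcription start to 30 bases from it, 280 bases in all, written 5′ to 3′ on the gene's own strand. Capitals mark the 5-letter SMAD-binding element CAGAC, or GTCTG where it lies on the other strand. The first LTBP1 window begins the long transcript, and the internal LTBP1 window printed here, the first of 2 that overlap, lies 187.4 kb downstream of it, inside the gene.
LTBP1, first start (chr2:32946703-32946982, plus strand): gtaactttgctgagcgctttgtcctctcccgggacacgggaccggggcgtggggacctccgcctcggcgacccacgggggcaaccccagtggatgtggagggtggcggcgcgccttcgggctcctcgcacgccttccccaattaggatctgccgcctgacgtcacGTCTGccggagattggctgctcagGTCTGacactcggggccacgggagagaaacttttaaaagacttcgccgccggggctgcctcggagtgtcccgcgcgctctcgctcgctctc
LTBP1, internal start (chr2:33134119-33134398, plus strand): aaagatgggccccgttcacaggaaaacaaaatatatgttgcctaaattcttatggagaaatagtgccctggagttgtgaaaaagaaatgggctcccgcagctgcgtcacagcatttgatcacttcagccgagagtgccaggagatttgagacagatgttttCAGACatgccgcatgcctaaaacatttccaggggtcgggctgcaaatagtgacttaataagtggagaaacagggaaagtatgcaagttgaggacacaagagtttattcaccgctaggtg
LTBP2 (chr14:74612208-74612487, minus strand): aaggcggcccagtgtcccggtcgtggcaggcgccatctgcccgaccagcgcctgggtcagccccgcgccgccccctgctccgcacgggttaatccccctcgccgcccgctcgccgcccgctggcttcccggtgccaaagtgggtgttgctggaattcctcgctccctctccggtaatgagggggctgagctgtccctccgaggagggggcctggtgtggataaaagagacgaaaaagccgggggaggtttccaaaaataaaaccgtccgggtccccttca
LTBP3, first start (chr11:65558330-65558609, minus strand): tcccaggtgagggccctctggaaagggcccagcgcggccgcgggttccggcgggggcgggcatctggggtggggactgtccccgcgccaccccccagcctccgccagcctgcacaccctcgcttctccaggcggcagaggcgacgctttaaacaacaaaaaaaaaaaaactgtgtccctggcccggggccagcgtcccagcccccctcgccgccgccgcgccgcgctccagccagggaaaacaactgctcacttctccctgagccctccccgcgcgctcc
TGFBI (chr5:136028738-136029017, plus strand): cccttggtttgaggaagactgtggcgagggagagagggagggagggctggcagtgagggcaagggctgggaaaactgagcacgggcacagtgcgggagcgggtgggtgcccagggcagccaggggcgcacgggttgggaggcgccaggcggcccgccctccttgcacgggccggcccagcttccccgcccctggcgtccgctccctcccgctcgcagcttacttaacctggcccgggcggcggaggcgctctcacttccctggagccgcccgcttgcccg
The first LTBP1 window held the element at a pair of places and each internal LTBP1 window at 1, and none lay in the windows printed for LTBP2, LTBP3 and TGFBI. The 9 genes had 21 annotated start windows in total, some of which overlap, and 9 of the windows (42.9%), belonging to LTBP1, TGFB2, TGFB3 and TGFBR1, held CAGAC on either strand. That share was close to the 42.7% among all 35116 promoter windows of this length. The AP-1 motif TGANTCA lay in 1 of the 21 windows (4.76%), at TGFBR2, against 7.35% of all windows, and the TEAD motif GGAATG in 2 (9.52%), at TGFB2 and TGFBR1, against 13.3%. Counts per gene do not tell which start was used, and a match in letters is no evidence of binding.

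All 3 ligands rose, by less than 2-fold. TGFB1 (gene 7040, chromosome 19, 41330323 to 41353922), the most widely expressed of the TGF-beta ligands, had 8336, 8034 and 7859.9 normalized counts in WT replicates 1 to 3 and 12116, 12089 and 12110.2 in NUAK2-CR replicates 1 to 3. All 3 NUAK2-CR libraries lay above all 3 WT libraries and within a narrow band. The mean rose 1.499-fold, from 8076 ± 241 to 12105 ± 14.4 (SD, n = 3 each), with a log2 fold change of 0.58 (standard error 0.06, 95% interval 0.45 to 0.72, edgeR adjusted p = 6.65e-06).

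TGFB2 (gene 7042, chromosome 1, 218345336 to 218444619), the ligand first purified from glioblastoma cells as a T-cell suppressor, had 2403, 3375 and 3212 normalized counts in the WT libraries and 4075, 3940.0 and 3836 in NUAK2-CR. The groups did not overlap, but WT replicate 1 lay well under the other two WT libraries. From 2997 ± 521 the mean rose to 3950.2 ± 119.8 (SD, n = 3 each), a log2 fold change of 0.40 (standard error 0.11, 95% interval 0.17 to 0.63, edgeR adjusted p = 0.00703). Without WT replicate 1 the log2 fold change of TGFB2 was 0.27, and the gene was still called.

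TGFB3 (gene 7043, chromosome 14, 75958097 to 75983011), is a ligand required for closure of the palate. It had 767, 1229 and 1205 normalized counts in the WT libraries and 1639, 1688 and 1638 in NUAK2-CR, again with WT replicate 1 the lowest and no overlap. Its mean rose 1.56-fold, from 1067 ± 260.3 to 1655 ± 28.7 (SD, n = 3 each), with a log2 fold change of 0.64 (standard error 0.14, 95% interval 0.33 to 0.95, edgeR adjusted p = 0.00233), or 0.45 without WT replicate 1.

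The latent binding proteins rose the most. LTBP1 (gene 4052, chromosome 2, 32946953 to 33399509), the founding member of the family and a partner of all 3 ligands, had 2941, 4075 and 3614 normalized counts in the WT libraries and 24019, 23364 and 23303 in NUAK2-CR. The lowest NUAK2-CR library lay far above the highest WT library. Its mean went from 3543 ± 570.4 to 23562 ± 397 (SD, n = 3 each), a 6.66-fold rise with a log2 fold change of 2.73 (standard error 0.11, 95% interval 2.51 to 2.96, edgeR adjusted p = 1.03e-09). LTBP1 was the only one of the 9 genes past an absolute log2 fold change of 2, a threshold that 4.72% of tested genes passed together with the adjusted p (1.89% higher, 2.83% lower), and its log2 fold change lay at the 99.1 percentile of tested genes.

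LTBP2 (gene 4053, chromosome 14, 74498183 to 74612237) is the family member that binds fibrillin but not latent TGF-beta. It had 657, 619 and 607 normalized counts in the WT libraries and 2155, 2423 and 2187 in NUAK2-CR, with each group tight around its mean. From 628 ± 25.9 it rose 3.59-fold to 2255 ± 146 (SD, n = 3 each), a log2 fold change of 1.84 (standard error 0.08, 95% interval 1.67 to 2.02, edgeR adjusted p = 3.19e-09).

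LTBP3 (gene 4054, chromosome 11, 65538559 to 65558359), which binds the latent ligands as LTBP1 does and is needed for normal bone and teeth, had 6609, 7037 and 6642 normalized counts in the WT libraries and 21335, 22914 and 20158 in NUAK2-CR. There was again a wide gap between the groups. The mean rose 3.17-fold, from 6763 ± 238 to 21469 ± 1383 (SD, n = 3 each), with a log2 fold change of 1.67 (standard error 0.07, 95% interval 1.51 to 1.82, edgeR adjusted p = 2.72e-09). The fourth member of the family, LTBP4, which binds the TGFB1 complex weakly and serves in elastic fibers, also rose, from 1607 ± 136 to 3821 ± 232 (SD, n = 3 each) normalized counts, with a log2 fold change of 1.25 (standard error 0.08, edgeR adjusted p = 8.57e-08).

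**Figure D1:**
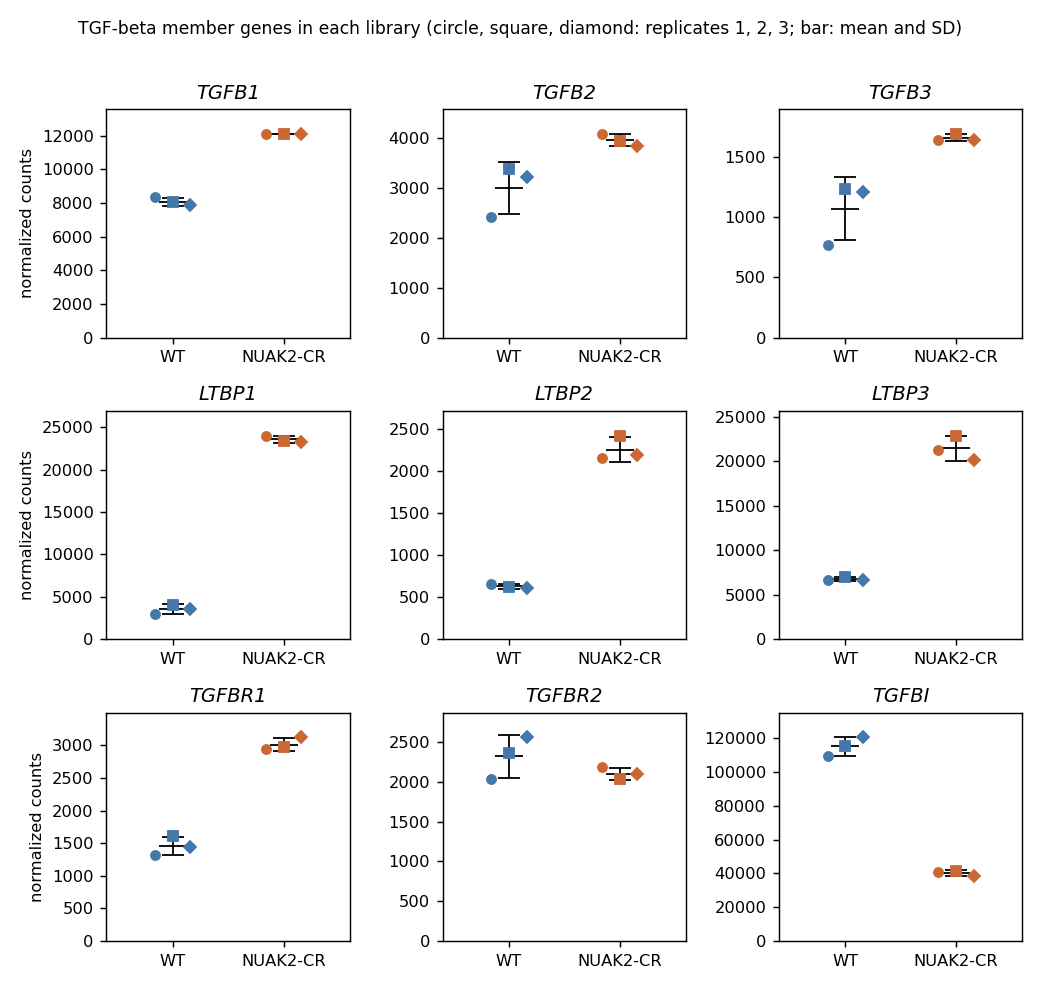
Normalized counts (vertical axes, each starting at 0 on its own scale) of the 9 genes in WT and NUAK2-CR libraries; symbols mark replicates 1, 2 and 3, and bars give the mean and SD of 3 libraries. The groups are apart for every gene except TGFBR2, and WT replicate 1 (circle) is the lowest WT library for TGFB2, TGFB3 and LTBP1.

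The receptors parted from each other. TGFBR1 (gene 7046, chromosome 9, 99103647 to 99154192), the type I receptor kinase that phosphorylates SMAD2 and SMAD3, had 1322, 1602 and 1433 normalized counts in the WT libraries and 2936, 2969 and 3124 in NUAK2-CR. The groups did not overlap. Its mean rose 2.07-fold, from 1452 ± 141 to 3009.8 ± 101 (SD, n = 3 each), a log2 fold change of 1.05 (standard error 0.08, 95% interval 0.88 to 1.23, edgeR adjusted p = 3.74e-07).

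TGFBR2 (gene 7048, chromosome 3, 30606356 to 30694142), the type II receptor that binds the ligand first, had 2034, 2358 and 2559 normalized counts in the WT libraries and 2179, 2029.7 and 2098 in NUAK2-CR. The groups overlapped, with WT replicate 1 inside the range of the NUAK2-CR libraries. The means were 2317 ± 265 and 2102 ± 74.7 (SD, n = 3 each), with a log2 fold change of -0.14 (standard error 0.09, 95% interval -0.33 to 0.05, edgeR adjusted p = 0.194). Without WT replicate 1 TGFBR2 was called, at -0.22 (edgeR adjusted p = 0.0112).

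TGFBI (gene 7045, chromosome 5, 136028988 to 136063818), whose product binds collagens and integrins, had the highest level per length of the 9 genes in both groups. It had 109191, 115589.6 and 120543 normalized counts in the WT libraries and 41005, 41285 and 38242 in NUAK2-CR, with no overlap. TGFBI fell 2.86-fold, from 115108 ± 5691 to 40177 ± 1682 (SD, n = 3 each), a log2 fold change of -1.52 (standard error 0.07, 95% interval -1.67 to -1.37, edgeR adjusted p = 3.58e-09). It was thus called in the opposite direction to the ligands, the latent binding proteins and TGFBR1.

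Of the 9 genes, 7 were called higher (26.3% of all tested genes), 1 was called lower (28.2%) and 8 had groups that did not overlap, against 61.4% of all tested genes. The median log2 fold change of the 9 was 0.64, and that of all tested genes was -0.01 with a middle range of -0.39 to 0.35. WT replicate 1, the deepest library, was the lowest WT library for all of them but TGFB1 and LTBP2, for which it was the highest, and the part of depth in this was not tested. Each gene was also set beside the 25 tested genes on either side of it on its chromosome. The median log2 fold change of these neighbors was between -0.04 and 0.18 for TGFB1, TGFB3, LTBP1, LTBP2, LTBP3, TGFBR1 and TGFBR2. Around TGFB2 the neighbors were lower, at -0.41, as was chromosome 1 as a whole at -0.43, so TGFB2 exceeded its neighbors by 0.81 on the log2 scale. Around TGFBI the median was -0.24, which left TGFBI -1.27 from its neighbors, or -0.96 with 10 genes on either side.

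**Figure D2:**
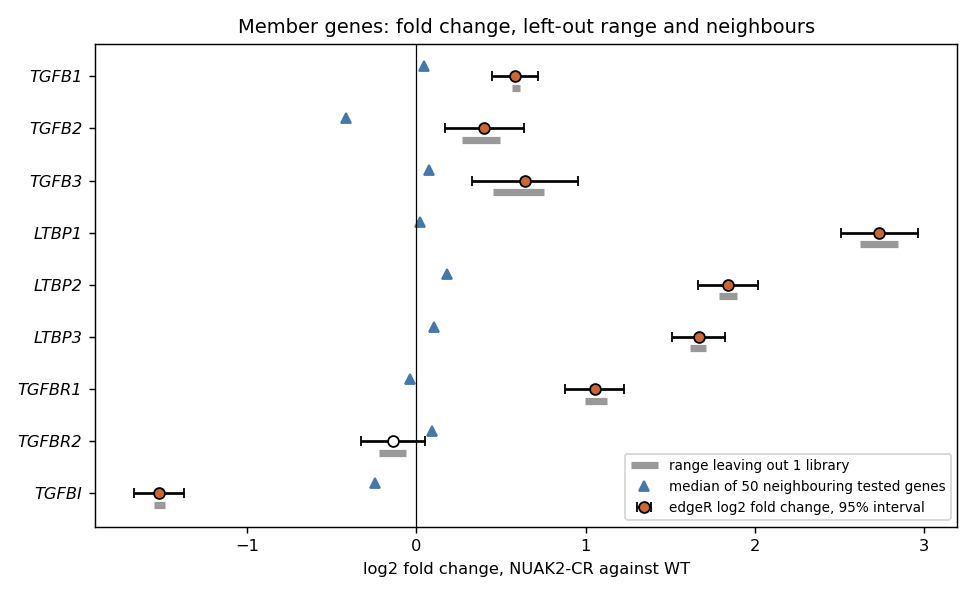
Log2 fold change of NUAK2-CR against WT (horizontal axis) for each of the 9 genes, with 95% intervals, the range obtained by leaving out each library in turn (gray bars) and the median of 50 neighboring tested genes (triangles); filled circles were called and the open circle was not. LTBP1 is farthest to the right at 2.73, TGFBI lies at -1.52, and TGFBR2 is the one interval that covers 0.

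Some of these genes share bases with others. Default counting settings ignore strand, so reads from overlapping genes on opposite strands cannot be told apart. TGFB1 shares 6.59% of its exon bases with HNRNPUL1 on the opposite strand, which had a log2 fold change of 0.16 (edgeR adjusted p = 0.0517). TGFB2 shares 11.6% with the antisense TGFB2-AS1, which averaged 3.667 counts, and 22.7% with TGFB2-OT1, which was at 0. TGFB2-OT1 lies on the same strand as TGFB2, so this 0 does not tell whether it was silent. How reads on shared bases were assigned was not tested.

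Levels were compared between genes per length as FPKM-type values, that is counts divided by the merged exon length and the library size. On this scale TGFBI led in WT at 398 ± 19.7 (SD, n = 3) and TGFB1 followed at 66.0 ± 1.97 (SD, n = 3). LTBP3 came next at 15.6, then TGFB2 at 13.2, LTBP1 at 12.9, TGFBR2 at 9.02, TGFB3 at 5.45, TGFBR1 at 4.85 and LTBP2 at 1.84. The ranges of TGFB2 and LTBP1 overlapped in WT, as did those of TGFB3 and TGFBR1, and those neighbors in the order cannot be separated. In NUAK2-CR the order was TGFBI at 139, TGFB1 at 98.9, LTBP1 at 85.5, LTBP3 at 49.7, TGFB2 at 17.4, TGFBR1 at 10.04, TGFB3 at 8.45, TGFBR2 at 8.18 and LTBP2 at 6.62. There TGFB3 and TGFBR2 overlapped. The order depends on the length used. Placing the genes by the length of the MANE Select transcript, the reference transcript of each gene, changed the rank of 3 genes in WT and of 6 in NUAK2-CR. LTBP1 held rank 5 in WT and rank 3 in NUAK2-CR by merged exons, but rank 4 in both groups by MANE Select, where LTBP3 lay above it in NUAK2-CR at 118 against 96.6. By that length TGFBR1 and TGFBR2 were level in NUAK2-CR, at 12.36 and 12.37. TGFBI led TGFB1 by 6.03-fold in WT and 1.40-fold in NUAK2-CR by merged exons, and the values by MANE Select were 1132 against 77.5 in WT and 395 against 116 in NUAK2-CR.

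The make-up of each set shifted in the latent binding proteins and the receptors more than in the ligands. Per length, LTBP1 made up 38.3%, 45.0% and 43.3% of the 3 latent binding proteins in the WT libraries and 61.0%, 58.5% and 61.4% in the NUAK2-CR libraries. The mean share went from 42.2 ± 3.49% to 60.3 ± 1.59% (SD, n = 3 each), while LTBP3 went from 51.7% to 35.0% and LTBP2 from 6.11% to 4.67%. By MANE Select length the LTBP1 share was 26.9% in WT and 43.5% in NUAK2-CR, so its size depends on the length used and its direction does not. Among the ligands, the share of TGFB1 was 78.0 ± 3.84% in WT libraries and 79.3 ± 0.344% in NUAK2-CR libraries (SD, n = 3 each). TGFBR1 made up 35.0 ± 2.29% of the 2 receptors in WT and 55.1 ± 1.32% in NUAK2-CR (SD, n = 3 each), or 30.5% and 49.98% by MANE Select length. The summed level of the 3 latent binding proteins was 0.358 ± 0.0207 times that of the 3 ligands in WT and 1.14 ± 0.0270 times in NUAK2-CR (SD, n = 3 each), or 0.541 and 1.51 by MANE Select length.

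**Figure D3:**
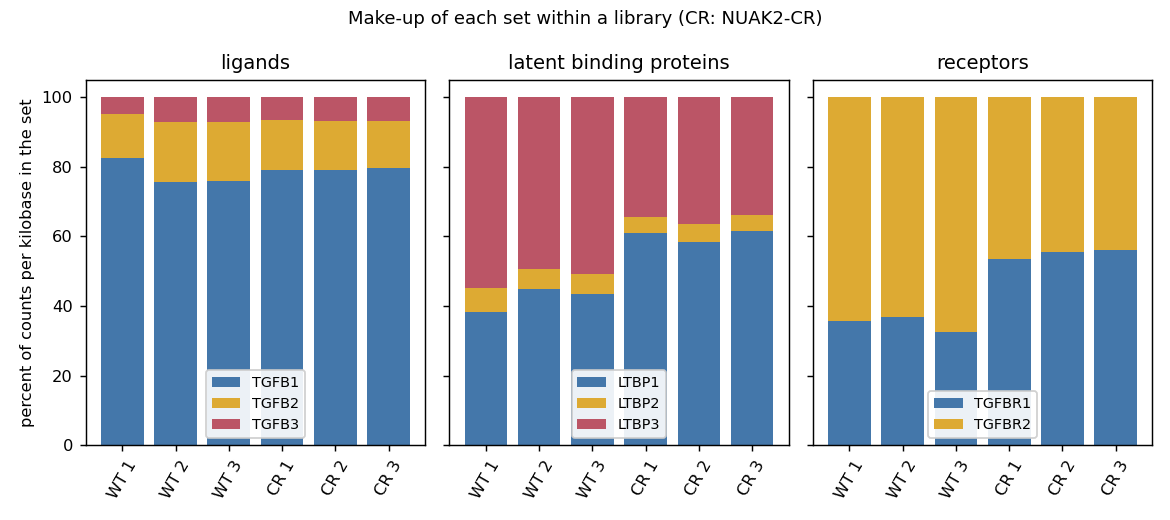
Percent of the counts per kilobase within each set (vertical axis) contributed by each ligand, latent binding protein and receptor in WT libraries 1 to 3 and NUAK2-CR (CR) libraries 1 to 3. LTBP1 and TGFBR1 hold larger shares in all 3 NUAK2-CR libraries, and the ligands keep similar shares.

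Ratios within a library do not depend on how libraries are scaled, and 4 were tested with a two-sided exact permutation test over the 20 splits of 3 against 3, for which the smallest possible p is 0.1, so none could pass 0.05. The log2 ratio of TGFBR1 to TGFBR2 went from -0.67 ± 0.15 to 0.52 ± 0.08 (SD, n = 3 each), a difference of 1.19 (standard error 0.10, exact p = 0.1, adjusted over the 4 ratios 0.133). The ratio of LTBP1 to LTBP3 rose by 1.08 (standard error 0.13) and that of LTBP1 to LTBP2 by 0.90 (standard error 0.18), each with the same exact p of 0.1. TGFB1 to TGFB2 differed by 0.17 (standard error 0.18, exact p = 0.4), within the spread of the WT libraries.

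The rest of the pathway was described with 6 lists holding 109 genes, of which 96 were tested. Of these, 69 were called (71.9%, against 54.5% of all tested genes), 50 of them higher (52.1%, against 26.3%) and 19 lower (19.8%, against 28.2%), with a median log2 fold change of 0.35. SMAD2 and SMAD3, which TGFBR1 acts on directly, were among the genes not called.

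**Figure D4:**
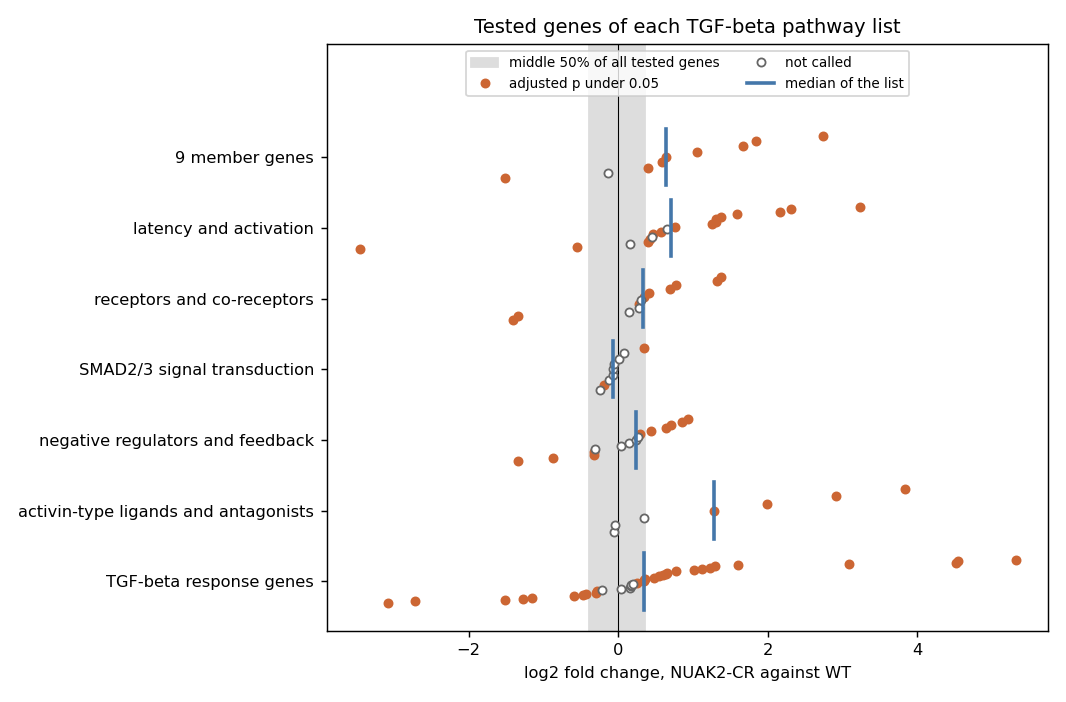
Log2 fold change of NUAK2-CR against WT (horizontal axis) of the tested genes of the 9 genes and of each pathway list; filled points were called, open points were not, vertical bars are list medians and the gray band spans the same middle range of all tested genes as above. The SMAD2/3 list stays close to 0 with a median of -0.07, and the response genes run from -3.08 to 5.31.

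Genes of latency and activation, which act between the latent complex and the free ligand, were called higher in 13 of 18 tested cases (72.2%, against 26.3% of all tested genes) and lower in 2 (11.1%, against 28.2%), with a median of 0.71. FN1, fibronectin, a matrix protein to which the complex is anchored, went from 27803 ± 4323 to 260475 ± 22493 (SD, n = 3 each) normalized counts, with a log2 fold change of 3.23 (edgeR adjusted p = 5.6e-10). FBN2, a fibrillin, went from 738 ± 50.8 to 3685 ± 546 (SD, n = 3 each), at 2.32 (edgeR adjusted p = 4.44e-09), and FBN1 rose by 0.40 (edgeR adjusted p = 0.00656). EMILIN1, another matrix protein of the list, was at 0.45 with overlapping groups (edgeR adjusted p = 0.23). Of the activators, THBS1, thrombospondin-1, rose by 0.42 (edgeR adjusted p = 0.000896) and ITGAV, the integrin subunit shared by the TGF-beta-activating integrins, by 0.57 (edgeR adjusted p = 0.00471). ITGB8, a partner of ITGAV, was at 0.15 (edgeR adjusted p = 0.218), and ITGB6, another partner, averaged 8.71 and 10.3 normalized counts in the groups and was too low to be tested. The list's other integrin beta subunits, named after their values were seen, were called higher: ITGB1 at 0.47, ITGB3 at 0.76 and ITGB5 at 1.30. The other tethers of latent TGF-beta, which hold it on cell surfaces, were scarce. LRRC32 had 0 counts in all 6 libraries, and NRROS rose from 39.2 ± 15.7 to 95.7 ± 40.1 (SD, n = 3 each) normalized counts with overlapping groups, at 1.30 (edgeR adjusted p = 0.011), or 1.04 (edgeR adjusted p = 0.0609) without NUAK2-CR replicate 3. FURIN, the protease that cleaves the precursor, fell from 10746 ± 216 to 7338 ± 221 (SD, n = 3 each), at -0.55 (edgeR adjusted p = 1.22e-05). The other gene called lower was MMP9, a protease that can release the ligand, from 75.4 ± 23.0 to 6.78 ± 1.14 (SD, n = 3 each), at -3.46 (edgeR adjusted p = 1.21e-05). MMP9 was picked out after its values were seen, passed the filter through the WT libraries alone, and was not tested where 10 counts were required in every library. The list's other MMP genes, MMP2 at 1.59 and MMP14 at 2.16, were called higher and were also named after their values were seen.

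The list of receptors and co-receptors left out TGFBR1 and TGFBR2, and held regulators such as FKBP1A and TGFBRAP1 as well as receptors. Of its 12 tested genes, 7 were called higher (58.3%, against 26.3% of all tested genes) and 2 lower (16.7%, against 28.2%). The median of the list was 0.33. TGFBR3, betaglycan, which presents TGFB2 to the signaling receptors, rose from 83.8 ± 39.3 to 212 ± 26.5 (SD, n = 3 each) normalized counts, a log2 fold change of 1.37 (edgeR adjusted p = 0.00231). ENG, endoglin, a co-receptor best known from endothelium, fell from 255 ± 38.2 to 96.3 ± 34.3 (SD, n = 3 each), at -1.41 (edgeR adjusted p = 0.000239). ACVR1, a type I receptor mainly for BMP ligands, rose by 0.77 (edgeR adjusted p = 1.81e-05). The other fall was in ACVR1C, a type I receptor for Nodal-like ligands, at -1.34 (edgeR adjusted p = 0.0098), which was also named after its values were seen. So were the remaining genes called higher: ACVR1B at 0.28, ACVR2A at 0.69, CD109 at 0.42, VASN at 1.32 and FKBP1A at 0.35. The 7 called higher are thus not all receptors.

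SMAD2/3 signal transduction held 9 tested genes, of which 1 was called higher and 1 lower (11.1% each, against 26.3% and 28.2% of all tested genes), with a median of -0.07. SMAD2 had 1688 ± 77.2 normalized counts in the WT libraries and 1628 ± 36.5 in NUAK2-CR (SD, n = 3 each), a log2 fold change of -0.05 (standard error 0.07, edgeR adjusted p = 0.562). SMAD3 had 5505 ± 171 and 5249 ± 258 (SD, n = 3 each), at -0.07 (standard error 0.07, edgeR adjusted p = 0.404). SMAD4, their shared partner, rose by 0.34 (standard error 0.08, edgeR adjusted p = 0.00432), and RNF111, a ubiquitin ligase that removes SMAD repressors, fell by 0.19 on the log2 scale (standard error 0.07, edgeR adjusted p = 0.0391), a call that ended under 7 alternatives. These are transcript levels, and phosphorylation of SMAD proteins was not measured in these libraries.

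Negative regulators were called higher in 6 of 15 cases (40%, against 26.3% of all tested genes) and lower in 4 (26.7%, near the 28.2% of all tested genes). Their median was 0.24, or 0.16 without WT replicate 3. Genes that TGF-beta induces as its own brakes moved in both directions: SMAD7, the inhibitory SMAD of the TGF-beta branch, rose from 85.7 ± 9.73 to 163 ± 40.3 (SD, n = 3 each) normalized counts, at 0.93 (edgeR adjusted p = 0.0034), and SKIL, a SMAD corepressor, rose by 0.63 (edgeR adjusted p = 2.13e-05). PMEPA1, a membrane protein that sequesters receptor SMADs, fell from 36028 ± 404 to 28871 ± 1436 (SD, n = 3 each), at -0.32 (edgeR adjusted p = 0.0012). SMAD6, the inhibitory SMAD of the BMP branch, fell from 754 ± 40.5 to 297 ± 30.1 (SD, n = 3 each), at -1.34 (edgeR adjusted p = 7.29e-07), and BAMBI, a receptor decoy, fell from 320.1 ± 10.004 to 175 ± 9.57 (SD, n = 3 each), at -0.87 (edgeR adjusted p = 0.000154). NEDD4L, a ubiquitin ligase for activated SMADs, rose by 0.85 (edgeR adjusted p = 1.46e-05).

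Activin-type ligands share the SMAD2/3 branch through other receptors, and their list also held antagonists such as FST and FSTL3. Only 7 of its 14 genes were expressed enough to be tested. Of these, 4 were called (57.1%, near the 54.5% of all tested genes). All 4 were higher (57.1%, against 26.3% of all tested genes), and the median of the list was 1.28. The median depends on which genes pass the filter: it was 0.28 with no filter on low counts, 0.69 without WT replicate 3, 0.82 without NUAK2-CR replicate 1 and 0.80 without NUAK2-CR replicate 2. INHBE, an activin subunit best known from liver, rose from 14.1 ± 4.95 to 195 ± 30.9 (SD, n = 3 each) normalized counts, at 3.83 (edgeR adjusted p = 3.67e-07). FST, follistatin, which traps activins, rose from 157 ± 36.8 to 1172 ± 55.6 (SD, n = 3 each), at 2.91 (edgeR adjusted p = 7.2e-09). The other called genes, named after their values were seen, were the ligand GDF11 at 1.28 (edgeR adjusted p = 1.86e-08) and the activin subunit INHBA at 1.99 (edgeR adjusted p = 0.000184).

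Of 35 tested genes known to respond to TGF-beta, 19 were called higher (54.3%, against 26.3% of all tested genes) and 10 lower (28.6%, near the 28.2% of all tested genes), with a median of 0.34. These counts include NOX4, which passed the filter on low counts through the NUAK2-CR libraries alone, and SNAI1, which passed through the WT libraries alone. Where 10 counts were required in every library, 18 were called higher and 9 lower. POSTN, periostin, a matrix protein of the same fasciclin family as TGFBI, went from 2527 ± 328 to 100509 ± 6365 (SD, n = 3 each) normalized counts, at 5.31 (edgeR adjusted p = 9.12e-12), so that the paralogs moved in opposite directions. ACTA2, smooth muscle actin, went from 93.0 ± 4.15 to 2138 ± 99.6 (SD, n = 3 each), at 4.52 (edgeR adjusted p = 1.07e-11). CCN2, a matricellular growth factor, went from 5929.5 ± 978 to 9206 ± 281 (SD, n = 3 each), at 0.64 (edgeR adjusted p = 0.000219). IL11, a cytokine, fell from 2480.3 ± 203 to 379 ± 71.3 (SD, n = 3 each), at -2.71 (edgeR adjusted p = 3.57e-09). The glial markers that fell are given above, and their part in the change of these genes was not tested.

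**Figure D5:**
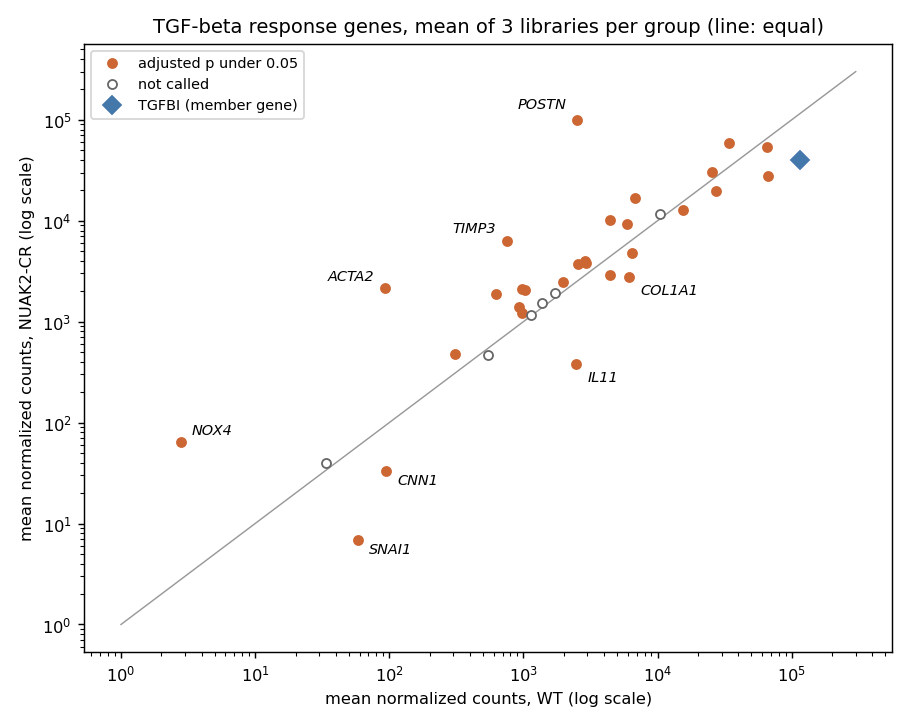
Mean normalized counts of 3 WT libraries (horizontal axis, log scale) against 3 NUAK2-CR libraries (vertical axis, log scale) for the 35 tested TGF-beta response genes and TGFBI; filled points were called, open points were not, and the line marks equal levels. POSTN and ACTA2 lie far above the line, and TGFBI and IL11 lie below it.

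For each of the 5 genes that were called with an absolute log2 fold change over 1, the 3 tested genes with the most similar profile across the 6 libraries were found by the root-mean-square distance of mean-centered log2 CPM. Nearest to LTBP1 were NR3C2, the mineralocorticoid receptor (distance 0.0587), PLXDC2 (0.0674) and IFITM1 (0.0759). LTBP2 lay nearest to KAZALD1 (0.0535), DENND2A (0.0674) and CPPED1 (0.0685). MMP2, a gelatinase of the latency and activation list, was nearest to LTBP3 (0.0648), followed by SLCO4A1 (0.0701) and LOC102724428 (0.0715). For TGFBR1 they were PODXL (0.0382), IKZF2 (0.0435) and TMTC1 (0.0447). TGFBI was closest to CACHD1 (0.0403), PGM5 (0.0551) and HMMR (0.0553). All of these distances rest on the same 6 libraries in 2 groups. Other tested genes lay nearly as close, so a place among the nearest 3 does not single a gene out.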

How the data were processed

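RNA of 3 WT and 3 NUAK2-CR libraries of U251 was isolated with TRIzol, and libraries were prepared with a stranded mRNA kit and sequenced as read pairs. Reads were trimmed by the authors with Trimmomatic, mapped on hg38 using HISAT2 and tallied by featureCounts, and the deposited values are these counts, with no normalization. All steps used default parameters, under which featureCounts ignores strand, and the annotation is not given in the sources used here. Groups and replicate numbers came from the sample labels. Of 28395 NCBI gene identifiers, 27745 matched a symbol and 650 did not. Totals per library were 29648445 to 55574081 counts. A gene at 0 may have had up to 3 counts, which covers counting error only.

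The counts were analysed in R 4.3.3 with edgeR 4.0.16 (filterByExpr, TMM, glmQLFit, glmQLFTest), and p-values were adjusted by the Benjamini-Hochberg method across all 14873 tested genes. Calls required an adjusted p under 0.05. The common biological coefficient of variation was 0.101. Coordinates and promoters came from RefSeq on GRCh38.p14, and exon lengths and gene overlaps from GENCODE on GRCh38. Normalized counts were counts scaled to the mean of the effective sizes. Ratios were tested in R after adding 0.5 counts, and lengths, promoters and figures were handled in Python 3.11.15. The pipeline was tested on simulated data.

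The alternatives were DESeq2 1.42.0, a replicate block, a filter of 1 count in all or of 10 in each library, scaling by RLE or by library size, leaving out libraries one by one, a prior count of 2, an absolute log2 fold change over 1, 10 neighbors on either side, and MANE Select lengths, the last chosen after seeing the data. The 9 genes and the lists were chosen with earlier results of these data known. The named genes are the 9 genes, NUAK2, a set of core pathway genes listed by name, and the 2 largest rises and 2 largest falls of each list among called genes whose mean reached 100 normalized counts in either group. Proteins were not analysed here. Results of some individual genes are not reported here.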

Additional observations from a re-analysis of the deposited data

How the results depend on the processing

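The log2 fold changes of TGFB1, TGFB2, TGFB3, LTBP1, LTBP2, LTBP3, TGFBR1 and TGFBI kept their direction and their call under each of 13 alternatives. TGFBR2 ranged from -0.22 to -0.064 with 1 library left out and was called only without WT replicate 1, so that 1 to 2 of the 9 genes were called lower across the left-out fits. Genes past an absolute log2 fold change of 2 numbered 702 and were 339 with at least 10 counts in every library; with a limit of 1 there were 2062. With at least 10 counts in every library MMP9 was not tested, and 1 gene of the latency and activation list was called lower. In the SMAD2/3 list, left-out fits called 1 to 2 genes higher and 0 to 2 lower, DESeq2 called 0 lower, and no filter gave 2. MANE Select lengths changed the rank of 3 genes in WT and 6 in NUAK2-CR, where LTBP3 then lay above LTBP1. Same-numbered libraries did not deviate together (correlations 0.04, -0.04 and 0.05). These values show no pairing by number, but with 3 libraries per group they cannot exclude one. The replicate block called 8167 genes in place of 8107 and 0 SMAD2/3 genes lower. No fold change reversed. The cause of these changes was not tested.

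Depth was 29648445 counts or more per library, so low genes such as ITGB6 and LRRC32 set the limit, not the 9 genes. The main limits are the clone, which the labels do not name, counting that ignored strand and the lack of protein measurements in these libraries.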
